A study of Glycine max with 4 samples.

Results

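Chromosome 15 of the soybean (Glycine max) carried 519 of the 11436 regions of open chromatin, or peaks, that were listed for embryos at early maturation. The members are all peaks placed on chromosome 15 in the deposited list, and the other 19 chromosomes held 10200 peaks. The 20 chromosomes together held 10719, and the remaining listed peaks lay on other sequences. Chromosome 15 had 4.84% of the peaks on chromosomes and about 5.49% of their summed length, taken to the last peak of each. Chromosome 15 was chosen by measured values, with earlier results of these data known, namely the positions and widths of its peaks: a denser start, a very long stretch without peaks and 3 dense clusters. The values below therefore describe the chromosome and are given without tests. Ranks among the 20 chromosomes show where it differs.

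The embryos came from the cultivar Williams 82, grown in a greenhouse with no treatment named in the labels, and were dissected by hand from seeds of 6 to 7 mm. There were 2 biological replicates, and each gave a single-end and a paired-end sample, so that both groups shared cultivar, tissue and stage. The authors used the paired-end samples alone, per the series' design text, and deposited 1 list that names no replicate and holds no height or read count. Depth was therefore unknown, peaks carried no replicate error, and the replicates could not be compared. Embryos were taken whole, so cell types within them cannot be told apart. Positions count from 1 and follow the authors' list, for which the sources used here name no genome build. No gene or sequence was assigned to a peak for that reason.

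The assay, ATAC-seq, uses the Tn5 transposase, which cuts and tags DNA mainly where nucleosomes leave it free. In plants such sites often lie at promoters and at regulatory elements away from genes. Soybean chromosomes generally have gene-rich ends and long central regions that are rich in repeats, poor in genes and low in recombination. Repeats also make it harder to place short reads uniquely, and whether reads could be placed equally well along chromosome 15 was not tested.

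Peaks were spread thinly on chromosome 15 as a whole, although the chromosome was long. Its peaks ran from 47817, where the first peak of 784 bp began, to 51733546, where the last peak of 559 bp ended, and the end of the last peak is used as the span. It had 10.03 peaks per Mb, the rank of 18 from the highest among 20 chromosomes, against 11.5 ± 1.17 on the others (SD, n = 19 chromosomes). The peaks covered 304.3 kb, or 0.588% of the span, which was close to the 0.601% ± 0.0750 of the others (SD, n = 19). Fewer peaks thus covered a similar share, because the mean width on chromosome 15 was 586.2 bp, exceeded only on chromosomes 10 and 17. Chromosomes are parts of a single list and not biological replicates, so these SDs describe the spread between chromosomes.

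The chromosome was lopsided. When the span was divided into 4 sections of equal length, the first held 206 peaks, the second 131, the third 44 and the last 138. In density these were 15.9, 10.1, 3.402 and 10.7 peaks per Mb. Density was thus lowest in the third section, and in the last it stayed below that of the first.

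The start was denser than the end, but the start was not unusual among chromosomes. Its first section ranked 9 of 20 in density, and the others averaged 14.6 ± 4.52 peaks per Mb (SD, n = 19 chromosomes). The last section had the lowest density of all 20, at 10.67 against 16.3 ± 2.93 on the others. The nearest was chromosome 6 with 10.74 peaks per Mb, which is almost the same. The third section was also the sparsest of its kind, followed by chromosome 12 at 3.89 peaks per Mb, against a mean of 7.09 ± 2.41. The last section of chromosome 15 was still denser than the first sections of chromosomes 13, 20, 3 and 19. Those had 5.94, 7.12, 8.59 and 8.71 peaks per Mb.

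The first 50% of the span held 64.9% of the peaks, the highest share of the 20 chromosomes. Chromosome 17 was almost the same at 64.7%. Chromosomes 19, 20 and 3 were more uneven in the other direction, with 28.7%, 31.1% and 31.9% of their peaks in the first 50%. The others averaged 48.4% ± 10.8 (SD, n = 19 chromosomes). The middle peak of chromosome 15 lay at 34.1% of the span, against 51.7% ± 14.1 on the others. On chromosomes 6 and 17 it lay still nearer the start, at 31.7% on each. Of the peaks in the first and last sections, 59.9% were in the first (95% exact binomial interval 54.5 to 65.1). Such intervals cover counting error only and take each peak as independent, which grouped peaks are not. Chromosomes 6 and 17 had larger shares of their outer peaks in the first section, 64.5% and 60.5%.

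**Figure D1:**
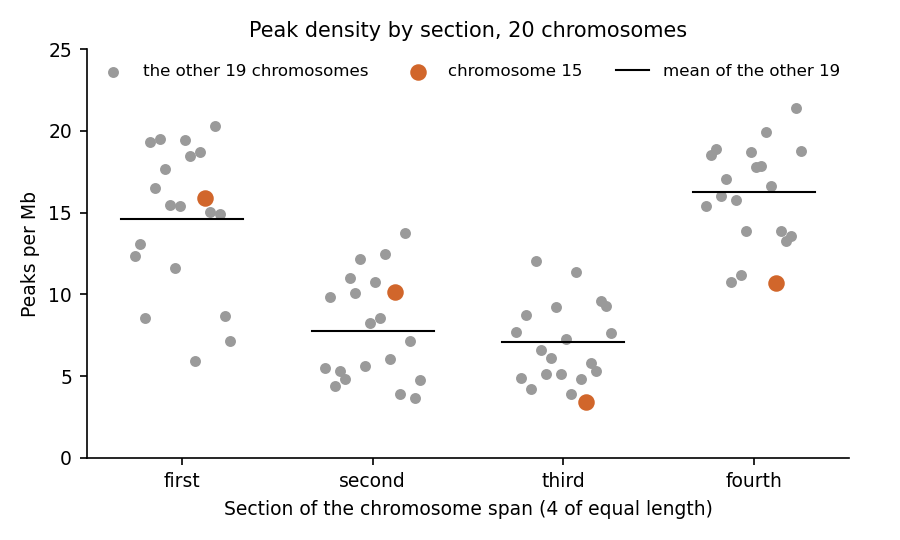
Peak density (peaks per Mb) in each of 4 equal sections of the span for the 20 chromosomes. Each point is a chromosome, spread sideways in order of number, and the black lines are the means of the other 19. Chromosome 15, in orange, sits near the middle in the first section with 15.9 peaks per Mb and is the lowest point in the third and in the last with 3.402 and 10.7.

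The dense start did not peak at the tip of the chromosome. In steps of 5 Mb, density was 13.6 peaks per Mb in the first step, 19.6 from 5 to 10 Mb, 13.8 from 10 to 15 Mb and 12.6 from 15 to 20 Mb. It then dropped to 6.40 from 20 to 25 Mb, 5.20 from 25 to 30 Mb and 1.60 from 30 to 35 Mb. Without the 24 peaks of dense clusters, the step from 15 to 20 Mb had 7.8 peaks per Mb. Density thus fell from its highest value between 5 and 10 Mb to its lowest between 30 and 35 Mb.

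On the far side the order was reversed. Density was 5.20 peaks per Mb from 35 to 40 Mb, 6.20 from 40 to 45 Mb, 14.2 from 45 to 50 Mb and 15.6 from there to the last peak. The first 5% and the last 5% of the span both had 13.9 peaks per Mb. These tips ranked 15 and 18 from the highest, against means of 17.7 ± 4.90 and 19.5 ± 5.12 on the others (SD, n = 19 chromosomes). Neither tip was thus rich in peaks for a soybean chromosome, and the contrast between start and end came from the regions behind the tips.

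The fullest 10 Mb, from 0.1 to 10.1 Mb, held 172 peaks, and the emptiest, from 26.5 to 36.5 Mb, held 26. Of the first 20 windows of 1 Mb, 16 held at least 10 peaks. Of the 24 windows from 20 to 44 Mb, 1 did, and of the last 8 windows, 6 did. The low stretch in the middle was thus nearly unbroken at this scale. The variance over the 52 windows was 5.12 times their mean.

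The 3 fullest windows of 1 Mb were of different kinds. The window from 45 to 46 Mb held 34 peaks, of which 13 belonged to a dense cluster, and the window from 17 to 18 Mb held 24, of which 15 did. The window from 8 to 9 Mb held 26 peaks and no dense cluster. Its peaks were short, with a median width of 347 bp and none above 794 bp, and 9 of them had the width that was most frequent in the list. Their median spacing was 30.002 kb, against 5.14 kb in the window from 45 to 46 Mb and 2.81 kb in that from 17 to 18 Mb. Peaks this short were not typical of the first 10 Mb. The median width was 461 bp in the first 5 Mb and 453.5 bp from 5 to 10 Mb. It was lower from 10 to 15 Mb, at 397 bp.

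**Figure D2:**
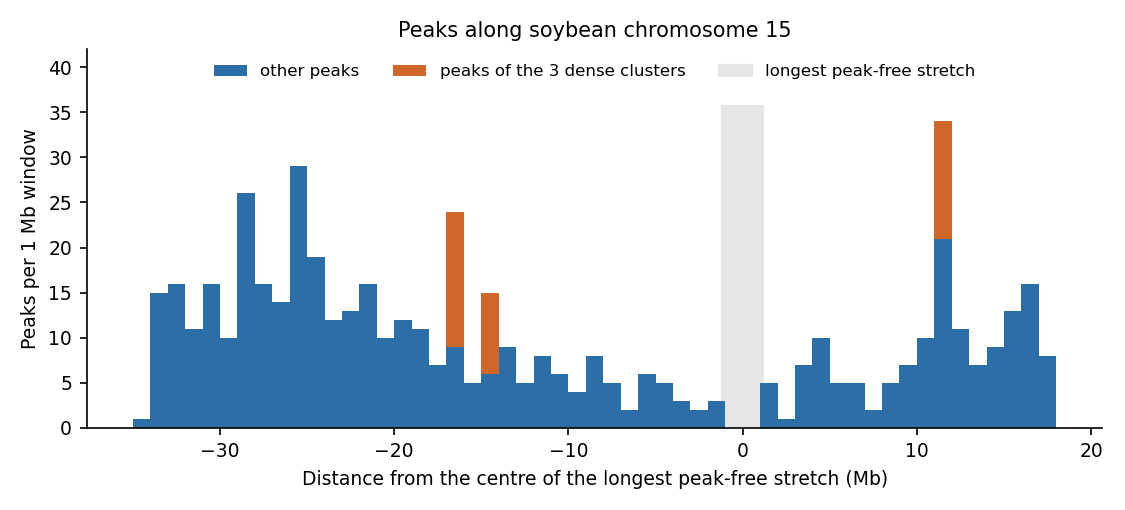
Peaks per window of 1 Mb along chromosome 15, with position as the distance in Mb from the centre of the longest peak-free stretch (shaded). Windows are counted from that centre and so differ from those in the text. Bars fall toward the stretch from both sides, and peaks of the 3 dense clusters, in orange, make up much of the bars at 16.3 and 14.5 Mb before it and 11.1 Mb after it.

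The longest stretch without a peak on any of the 20 chromosomes lay on chromosome 15, from 32927829 to 35292951. Its 2.37 Mb covered the part between 63.6% and 68.2% of the span. The longest stretches of the other chromosomes averaged 1.36 ± 0.343 Mb (SD, n = 19 chromosomes), and the next was 2.14 Mb on chromosome 2. The second longest on chromosome 15 was 1.39 Mb, the rank of 3 among second longest stretches. It held 3 stretches over 1 Mb, while chromosomes 10 and 19 had 6.

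The peaks that border the longest stretch were unlike each other. On the near side, a narrow peak of 202 bp ran from 32927627 to 32927828, and its closest neighbour was 428.7 kb away. On the far side, a peak of 650 bp ran from 35292952 to 35293601 and was 2.38 kb from another of 416 bp, measured between midpoints. The stretch was thus entered from a lone narrow peak and left at a close pair.

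Other long stretches lay near it and farther away. The next were 1.39 Mb from 26406216 to 27798911, 1.14 Mb from 35934924 to 37079657, 0.765 Mb from 30687506 to 31452013 and 0.719 Mb from 40803846 to 41522817. Of the 11 stretches over 500 kb, 5 lay between 30687506 and 37079657, including the longest. This region of 6.39 Mb, whose limits were set after the values were seen, held 10 peaks, and those 5 stretches made up 85.3% of it. In all, stretches over 500 kb took 18.995% of the span, which ranked 12 of 20. Chromosome 15 thus had no excess of long empty stretches in total. The other 6 of the 11 lay outside this region, on both sides of it.

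The 10 peaks inside this region were not uniformly small. Their widths ran from 202 to 1388 bp, and together they covered 5.23 kb. The widest, from 32086710 to 32088097, was 392.8 kb from its nearest neighbour. A narrow peak from 31452014 to 31452319 was 635.2 kb from its own. Others came as pairs: those of 597 and 385 bp were 18.8 kb apart, and those of 260 and 667 bp were 19.9 kb apart. Windows of 1 Mb from 33, 34 and 36 Mb were empty, and only chromosome 14 also had 3 empty windows.

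The sides of the longest stretch differed in length and in number of peaks. The side before it had 364 peaks over 32.9 Mb and the side after it had 155 over 16.4 Mb, which gives 11.1 and 9.43 peaks per Mb. Covered length went the other way, with 0.596% before and 0.658% after. Near the stretch both sides were sparse. Within 2 Mb of its edges there were 5 peaks before and 6 after, or 2.5 and 3 per Mb.

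Density rose faster with distance on the far side. That side is shorter, so equal distances lie nearer to the end of the chromosome there. From 2 to 5 Mb away it was 4.67 peaks per Mb before and 7.33 after. From 5 to 10 Mb it was 5.4 before and 10 after, and from 10 to 15 Mb it was 8 before and 11 after. Without the dense clusters the values from 5 to 10 Mb were 5.4 and 7.4, and those from 10 to 15 Mb were 6.2 and 11. Beyond 15 Mb both sides were alike, with 15.5 before and 15.3 after, although the far side there was only its last 22 peaks.

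Spacing between neighbours was nearly the same on both sides at its centre. The median distance between midpoints was 42.4 kb before the stretch (95% binomial interval of the median 34.3 to 53.9, 363 spacings) and 43.7 kb after it (26.5 to 62.0, 154 spacings). The intervals overlapped almost wholly. The quartiles were 10.2 and 112.8 kb before, and 8.75 and 146.5 kb after. Distances up to 5 kb made up 17.4% before (13.6 to 21.7) and 18.2% after (12.4 to 25.2). Distances over 100 kb made up 28.9% (24.3 to 33.9) and 33.1% (25.8 to 41.1).

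Against other chromosomes, spacing on chromosome 15 was wide at its centre and in its upper part. Its median of 43.4 kb ranked 3 of 20, against 38.7 ± 3.88 kb on the others (SD, n = 19 chromosomes). Distances over 100 kb made up 30.3%, second to chromosome 1, against 24.8% ± 3.53. Close neighbours were also frequent: 17.6% lay within 5 kb, which ranked 5 of 20, against 16.0% ± 2.64. That rank rested on the dense clusters, since without those of every chromosome it was 15, with 13.3%.

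**Figure D3:**
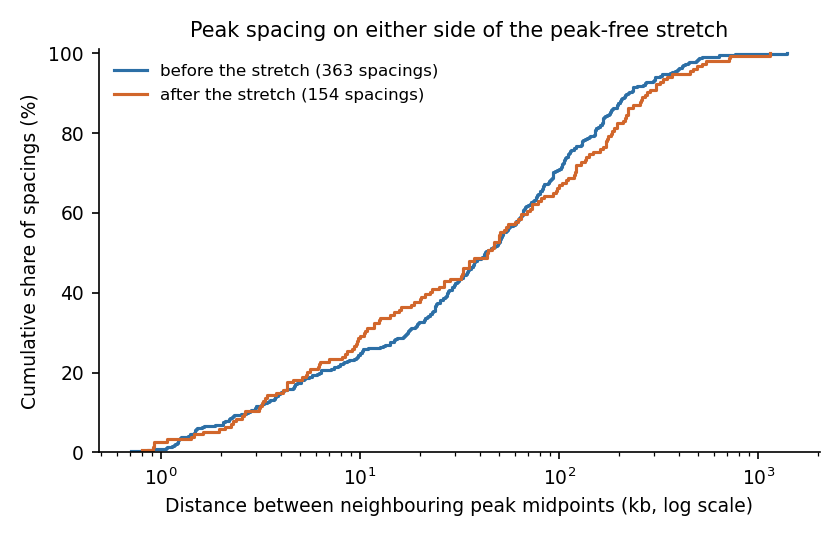
Cumulative share (%) of distances between neighbouring peak midpoints, on a log scale in kb, before (blue, 363 distances) and after (orange, 154 distances) the longest peak-free stretch. The curves cross near their medians of 42.4 and 43.7 kb, and the orange curve lies lower beyond 100 kb, where it has 33.1% of its distances against 28.9%.

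Most peaks stood alone. When gaps of at most 10 kb were joined, 298 peaks (57.4%) had no partner, 110 formed pairs and 48 formed groups of 3. Another 26 were in 6 groups of 4 or 5, and the remaining 37 (7.13%) were in the 3 dense clusters, which have at least 8 peaks each. No group had 6 to 8 peaks, so the clusters were set apart in size from the other groups. No other chromosome had more than 2 dense clusters. That rank depended on the settings: with gaps of at most 5 kb chromosome 15 had 1 and another chromosome 3, and with gaps of at most 20 kb it had 3 and another 4. It shared the highest number, 3, when at least 6 peaks were asked for. With at least 10 peaks, or with peaks within 1 kb merged first, it kept only 2 and again shared the highest number.

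The first cluster lay from 17745402 to 17781764, at 34.3% of the span. Its 15 peaks covered 10.7 kb, or 29.5% of 36.4 kb. The gaps between them had a median of 1405.5 bp and reached 5.40 kb, and the nearest peaks outside were 41.9 kb before and 134.3 kb after. It was the most even of the 3 clusters: the widest peak, from 17767832 to 17769153, had 1322 bp and 12.3% of the covered length. The median width was 666 bp, 4 peaks had at least 1 kb, and the narrowest had 68 bp.

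The second cluster lay from 19577063 to 19603464 and was dominated by 1 peak. Its 9 peaks covered 14.6 kb, or 55.3% of 26.4 kb. The widest peak of the chromosome, 7661 bp from 19585727 to 19593387, made up 52.5% of this. After a gap of 844 bp it was followed by a peak of 3382 bp from 19594232 to 19597613. The other 7 peaks had at most 886 bp, so wide and narrow peaks stood side by side with none between 886 and 3382 bp.

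The third cluster was on the far side of the empty stretch, 9.87 Mb from its edge, from 45157984 to 45209299. Its 13 peaks covered 18.95 kb, or 36.9% of 51.3 kb, and 4 of them had at least 2 kb. The widest ran from 45179978 to 45184339 with 4362 bp, and the others of this class had 3599, 2812 and 2536 bp. Narrow peaks lay before all 4 of them, with 3 of at most 293 bp and the smallest at 95 bp. Gaps ran from 346 bp to 9.79 kb, the largest before the last peak, and a group of 5 shorter peaks followed after 11.3 kb. With gaps of at most 5 kb joined, only the first cluster kept at least 8 peaks, since gaps over 5 kb split the other 2 into runs of fewer peaks.

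**Figure D4:**
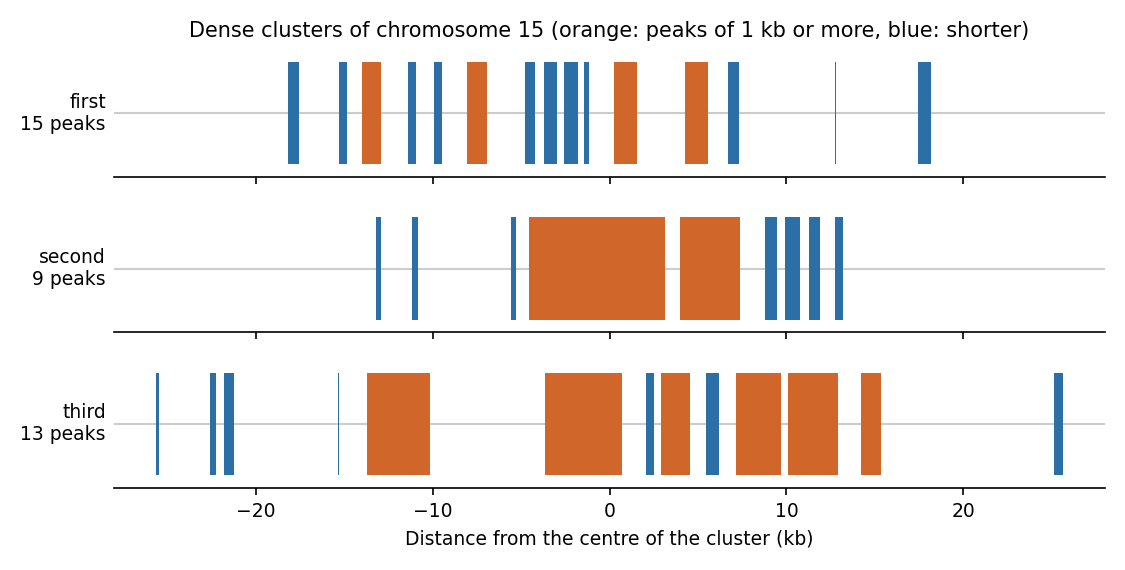
The 3 dense clusters of chromosome 15, drawn to scale as distance in kb from the centre of each cluster. Each box is a peak, orange where it has at least 1 kb and blue where shorter. The first cluster has 15 peaks of at most 1322 bp, the second is dominated by peaks of 7661 and 3382 bp, and the third has 4 peaks of at least 2 kb among 13.

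Wide peaks were frequent on chromosome 15, partly through its dense clusters, and most of the widest lay outside its middle. There were 39 peaks of at least 1 kb, 7.51% of its peaks (95% exact binomial interval 5.40 to 10.1), a share exceeded by chromosomes 10 and 18. On the other 19 chromosomes together it was 4.98% (4.57 to 5.42). Peaks of at least 2 kb numbered 11, the same as on chromosome 17 and second to the 20 of chromosome 10. Of the 11, 2 lay in the second or the third section, which is 18.2% (2.28 to 51.8). On the other chromosomes 60 of 97 did, which is 61.9% (51.4 to 71.5), but chromosomes differed widely: 19 of 20 did on chromosome 10, 11 of 11 on chromosome 17 and 0 of 10 on chromosome 19. The share on chromosome 15 was the rank of 4 from the lowest, and the median of the 17 others with such peaks was 50%, so this place of the widest peaks was not particular to chromosome 15. The 2 on chromosome 15 were neighbours in the second cluster.

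The widest peaks were shared between both sides. After the 7661 bp peak came 1 of 6715 bp from 45401888 to 45408602, 1 of 5845 bp from 47402867 to 47408711 and 1 of 4395 bp from 11417944 to 11422338. The fifth was the 4362 bp peak of the third cluster. The 5845 bp peak stood apart, 47.1 kb from its nearest neighbour, while the other 4 had a neighbour within 5 kb. The remaining peaks of at least 2 kb outside clusters were 1 of 2629 bp from 11816242 to 11818870 and 1 of 2113 bp from 44966169 to 44968281. In total 6 of the 11 were inside dense clusters, which held 7.13% of all peaks of the chromosome.

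The share of wide peaks was higher on the far side, as a description of this list. At least 1 kb was reached by 19 of 364 peaks before the stretch, 5.22% (3.17 to 8.03), and by 20 of 155 after it, 12.9% (8.06 to 19.2). Outside dense clusters the shares were 3.82% (2.05 to 6.45) and 9.86% (5.50 to 16.0). With peaks within 1 kb merged first they were 10% (7.03 to 13.7) and 16.0% (10.4 to 23.0), so that the share before the stretch depended strongly on merging. Many wide peaks of the far side lay in 1 region of 442.4 kb, from 44966169 to 45408602, whose limits were set after the values were seen. It held 31 peaks, 20% of that side, and 11 of its 20 peaks of at least 1 kb. The other 124 peaks of that side had 9 such peaks, 7.26% (3.37 to 13.3).

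Typical peaks had similar widths on both sides. The median was 450 bp before the stretch (95% binomial interval of the median 410 to 475) and 471 bp after it (417 to 548). The lower quartile was the same on both sides, and the upper quartile was 614.5 bp before and 675 bp after. The width most frequent in the list, which was also that lower quartile, was found in 58 peaks before, 15.9% (12.3 to 20.1), and in 23 after, 14.8% (9.64 to 21.4). Narrower peaks made up 12.9% on both sides. The intervals of the median and of this share overlapped between the sides.

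Over the whole chromosome, this width was that of 81 peaks, or 15.6%, close to the 16.1% of the other 19 chromosomes together. The next most frequent width was 308 bp, with 8 peaks. The narrowest peak had 26 bp, and 5 peaks were under 100 bp. The median width of 459 bp ranked 6 of 20, against 449.3 ± 15.5 bp on the others (SD, n = 19 chromosomes).

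**Figure D5:**
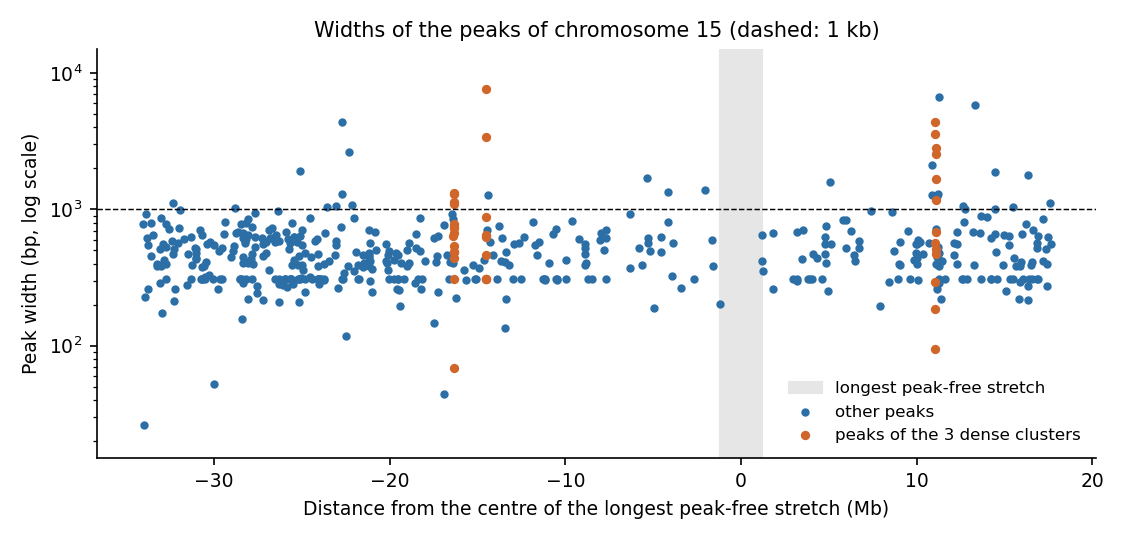
Width of each peak of chromosome 15 (bp, log scale) against distance in Mb from the centre of the longest peak-free stretch (shaded). The dashed line marks 1 kb, which 19 peaks reach before the stretch and 20 after it. Peaks of the dense clusters are orange, and the row of points at the most frequent width runs along the whole chromosome.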

How the data were processed

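Nuclei of hand-dissected embryos were purified and treated with Tn5, per the labels' protocols. The submitters' processing notes list Bowtie2 (2.3.4.1), HOMER, bedtools and SAMtools with no role. The sources used here do not give the peak-calling settings, genome build, filters or the joining of replicates. The authors deposited 1 list of 3 columns: sequence, start (counted from 0) and end in bp. Its name calls it an intersection. If replicates were intersected, peak edges can differ from those in either.

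Starts were changed to count from 1. Each chromosome's span ended at its last peak, a lower bound of its length. Peaks were placed by midpoint, spacing was measured between neighbouring midpoints, and a peak-free stretch ran from the end of a peak to the start of the next. Dense clusters were chains with gaps of at most 10 kb and at least 8 peaks. Shares carry 95% exact (Clopper-Pearson) intervals and medians carry binomial order-statistic intervals. No test was run. Functions were tested on simulated lists with a planted empty stretch and planted clusters. The gene table available was on Glycine_max_v4.0, which could not be matched to the list's build, so no gene or sequence was used.

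Members and measures were chosen with earlier results of these data known. Regions named were, by rule, the 5 longest peak-free stretches, the peaks bordering the longest, the dense clusters with their widest peaks, all peaks of at least 2 kb (the 5 widest among them), the first and last peaks, and the emptiest and fullest windows. Other regions were named after their values were seen. Alternatives covered the smallest peak width, merging, the extent of outer parts, the dense clusters and their settings. Python 3.11.15, numpy 2.4.6, pandas 2.3.3, scipy 1.17.1 and matplotlib 3.10.9 were used.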

Additional observations from a re-analysis of the deposited data

How the results depend on the processing

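Of 54 alternatives for 12 results, 45 stayed within the result's 95% binomial interval (for the count of dense clusters, within 1.5 times, and for the longest stretch, at the same bordering peaks). Of 8 added after seeing the data, 7 did. The minimum width of 100 bp removed only 5 peaks of chromosome 15, so it could hardly move a result. A fall from 3 dense clusters to 2 was counted as staying. The share of peaks in the outer parts, 66.3% with 25% at each end, was 24.7% with 10%, 57.2% with 20% and 74.95% with 30%, as wider parts hold more peaks. The share of outer peaks at the start was 53.9% with 10%, against 59.9%. Using only peaks at or above the most frequent width, the longest stretch grew to 2.79 Mb, since its bordering peak of 202 bp was dropped, and the median width before it became 480 bp. With gaps of at most 5 kb there was 1 dense cluster, and with at least 10 peaks or after merging peaks within 1 kb there were 2. Neighbours within 5 kb fell from 17.6% to 10.6% after merging peaks within 1 kb and to 13.3% without dense clusters. Merging raised the share of peaks of at least 1 kb before the stretch to 10%, against 16.0% after it. The longest stretch ranked 1 and the last section 20 of 20 with each minimum width, with merging and without the dense clusters of all chromosomes. The third section ranked 19 with peaks at or above the most frequent width, and the share in the first 50% of the span ranked 2 after merging. Leaving out each replicate was not run, because the list does not tell them apart. No paired analysis was possible because peaks carry no replicate name. Depth was unknown, so what it limits could not be given.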

Other observations

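Smaller groups of peaks lay along chromosome 15 as well. The groups of 5 ran from 12933022 to 12953482, where no peak exceeded 705 bp, and from 45220573 to 45247083, right after the third dense cluster. Groups of 4 began at 10397029, 25221377, 45325547 and 48584878. The last of these had the widest median of these 6 groups, 830 bp, and held a peak of 1874 bp. The group at 25.2 Mb was 304.0 kb from the nearest peak before it.

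Median width differed between classes of distance to the nearest neighbour, but without a steady order. The 149 peaks with a neighbour within 5 kb had a median of 498 bp (95% binomial interval of the median 466 to 560), and 14.1% of them had at least 1 kb. Most of the 21 peaks of at least 1 kb in that class lay in the 3 dense clusters, 4, 2 and 6 in order. The chromosome was chosen partly for these clusters, so the higher share rests largely on them. The class was not recomputed without them. The 126 peaks with the nearest at 5 to 20 kb had 404 bp (382 to 468), and the 180 at 20 to 100 kb had 423 bp (401 to 471). At least 1 kb was reached by 6.35% and 3.89% of these, in that order. The 64 peaks over 100 kb from any other had 479.5 bp (394 to 578), and 3 of them had at least 1 kb. The share of peaks of the most frequent width was between 14.1% and 17.2% in these classes.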
